A study of Rattus norvegicus with 14 samples.

Results

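The growth hormone and IGF axis was followed through 10 liver genes out of 14506 genes measured: the receptors Ghr and Prlr, the transcription factor Stat5b and its feedback genes Socs2 and Cish, the growth factor Igf1, its carrier subunit Igfals, and the binding proteins Igfbp1, Igfbp2 and Igfbp3. The genes were chosen by name, with earlier results of these data known, and each of the 10 had 1 array probe assigned to it alone. Liver RNA came from 14 lean female Zucker rats of genotype fa/+, which carry 1 mutant copy of the leptin receptor gene and do not become obese. For 64 days, 7 control rats ate a standard diet and 7 extract rats ate that diet with a rosemary extract (0.05% of the diet by weight) that was enriched to 40% in carnosic acid, a diterpene of rosemary leaves. The series title gives the age as about 15 weeks and the dose as 0.5%, whereas the sample labels give 0.05%. Each rat had 1 array, so every value below is 1 animal.

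Growth hormone binds its receptor GHR on hepatocytes, the kinase JAK2 is activated, and STAT5B enters the nucleus to drive Igf1, Igfals, Socs2 and Cish. SOCS2 and CIS, the product of Cish, damp the receptor in return. IGF1 circulates mostly in a complex with IGFBP3 and the acid-labile subunit encoded by Igfals, while IGFBP1 and IGFBP2 form smaller complexes and are known to rise when insulin is low. In rats, females secrete growth hormone almost continuously and males in pulses, and this pattern sets many sex differences of liver transcripts.

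The promoters of Cish and Igfbp1 are shown because between them they carry letters associated with STAT5 and with the insulin-repressed FOXO factors. RefSeq sequences of assembly GRCr8 were found for 9 of the 10 genes, and the 250 bases before each annotated start were searched on both strands for TTCNNNGAA, the STAT5 consensus, and for CAAAACA, the core of the insulin response element. Socs2 is not shown. In the lines below, which run 5′ to 3′ on the plus strand, capitals mark every match to either motif; no matches overlap.
Cish, chr8:116850719-116850968: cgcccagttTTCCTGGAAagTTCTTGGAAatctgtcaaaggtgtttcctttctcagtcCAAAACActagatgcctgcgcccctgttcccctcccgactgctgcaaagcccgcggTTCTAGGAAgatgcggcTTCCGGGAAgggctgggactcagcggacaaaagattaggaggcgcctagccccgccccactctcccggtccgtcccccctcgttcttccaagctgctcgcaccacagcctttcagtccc
Igfbp1, chr14:86261027-86261276: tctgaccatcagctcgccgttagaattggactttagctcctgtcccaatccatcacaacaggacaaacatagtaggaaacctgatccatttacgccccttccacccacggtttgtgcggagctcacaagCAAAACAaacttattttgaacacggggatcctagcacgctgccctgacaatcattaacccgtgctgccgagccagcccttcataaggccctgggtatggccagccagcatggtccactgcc

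The Cish window held 4 matches to TTCNNNGAA, lying between bases -241 and -111 from the start. Of 33469 rat promoters of the same length, 7.67% held at least 1 such match and 0.00598% (2 promoters) at least 4. The Igfbp1 window held 1 match to CAAAACA at bases -121 to -115, a motif present in 5.46% of all promoters. The same motif occurred in the windows of Cish and Igf1. Prlr had 2 annotated starts and so 2 windows, of which 1 held only CAAAACA and the other only TTCNNNGAA. These matches describe letters only, and the windows of Ghr, Stat5b, Igfals, Igfbp2 and Igfbp3 held no match to either motif.

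Among the 10 genes, 1 binding protein rose and 1 fell with the extract. Igfbp2 rose 1.73-fold and Igfbp3 fell to 78.6% of control, while Igf1, Ghr and Stat5b differed by less than the spread between rats. Igfbp1 had a mean 1.62-fold higher and Igfals a mean at 80.9% of control, and neither passed. The test was limma's moderated test on log2 values with Benjamini-Hochberg adjustment over all 14506 genes, at an adjusted p of 0.05. Over all genes 3.15% were called, 2.00% higher and 1.15% lower, and these are the shares against which 2 calls among 10 genes are read. In 0 of the 10 genes were the groups free of overlap, against 1.54% of all genes. The median log2 fold was -0.04 over the 10 genes and 0.00 over all genes.

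**Figure D1:**
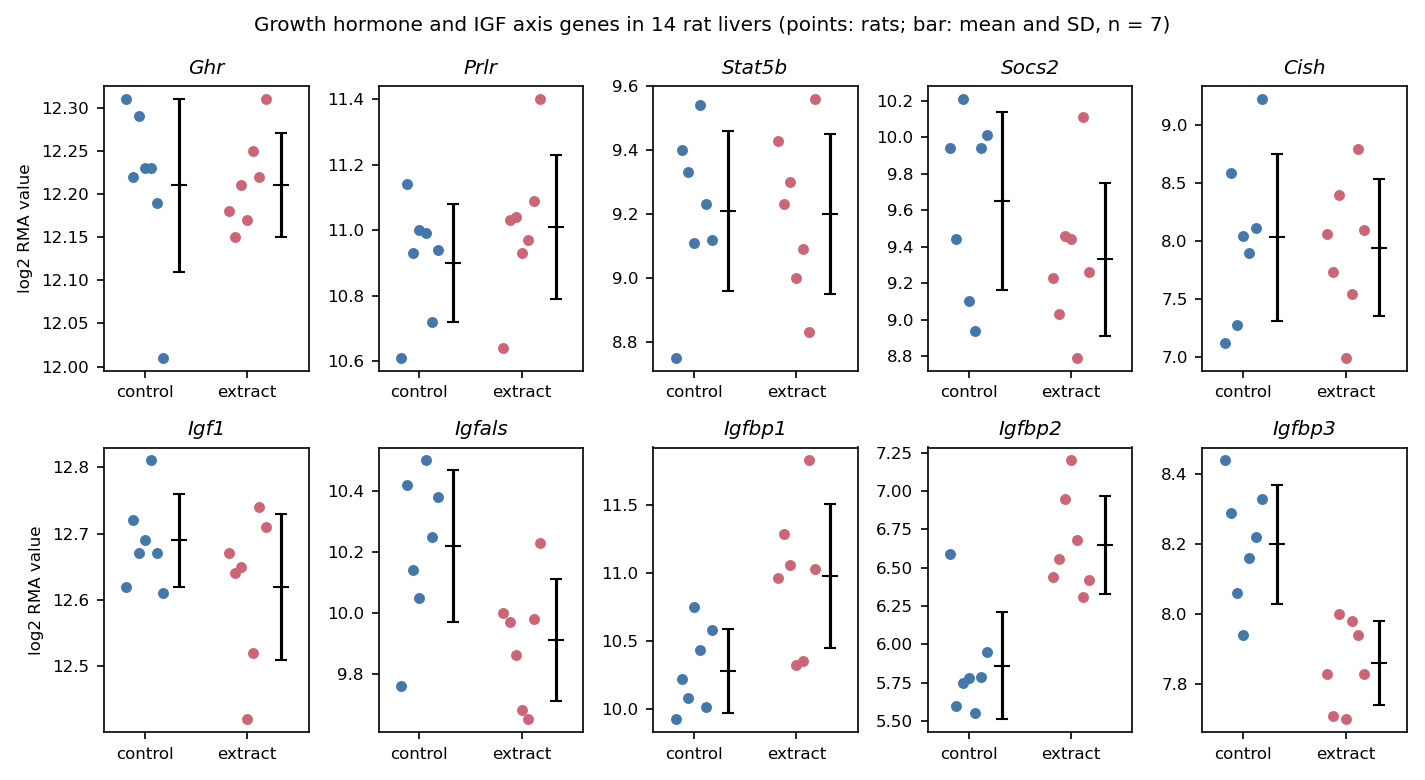
Log2 RMA value (vertical axes, each with its own range) of the 10 genes in each control rat and each extract rat; points are rats and the bar beside them gives the mean and SD of 7. The Igfbp2 points of 6 control rats lie below every extract rat, and control rat 1 stands among the extract rats at 6.59.

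Igfbp2 encodes a binding protein that is low in healthy adult liver and rises with fasting. Its log2 values in control rats ran from 5.55 through a median of 5.78 to 6.59, and in extract rats from 6.31 through 6.56 to 7.20. All 7 extract rats lay above the control median, and 6 of 7 controls lay below the lowest extract rat. The only overlap came from control rat 1, at 6.59, against at most 5.95 in the other controls. The means were 5.86 ± 0.35 in control and 6.65 ± 0.32 in extract rats (SD, n = 7 each). The log2 fold was 0.79 ± 0.16 (SE; adjusted p = 0.00691; exact two-sided permutation p = 0.00291). Without control rat 1 it was 0.92 (adjusted p = 0.000206). The call held in each of the 24 other settings tried, with log2 folds from 0.70 to 0.92. Not all of them could have lost it. The looser threshold (adjusted p of 0.1) used the same fit, and averaging probes left the values of this 1-probe gene unchanged. The filter at a mean of at least 6 kept Igfbp2 only through its extract rats (mean 6.65, against 5.86 in control). Over all probes the control median was 5.10, so control values of Igfbp2 lay not far above the middle of the array, where RMA values compress folds.

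Igfbp1, whose transcription is repressed by insulin and switched on by FOXO1 and by amino acid shortage, was higher in most extract rats without passing the test. Control values ran from 9.92 through 10.22 to 10.75, and extract values from 10.32 through 11.03 to 11.83. Of the extract rats, 5 lay above every control, while extract rats 4 and 5 (10.32 and 10.35) stood among the controls. The means were 10.28 ± 0.31 and 10.98 ± 0.53 (SD, n = 7 each), with a log2 fold of 0.69 ± 0.20 (SE; adjusted p = 0.0668; exact two-sided permutation p = 0.0111). The call was gained without control rat 4 (adjusted p = 0.0489), extract rat 4 (0.0249) or extract rat 5 (0.0329). It was also gained when genes with a mean below 6 were dropped (0.047), with array weights (0.0131) and without both control rat 1 and extract rat 4 (0.0335), and the adjusted p over all settings ran from 0.0131 to 0.148.

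Igfbp3, which carries most IGF1 in blood and in rat liver is made largely by non-parenchymal cells, fell. Control values ran from 7.94 through 8.22 to 8.44 and extract values from 7.70 through 7.83 to 8.0. All 7 extract rats lay below the control median, and 6 of 7 controls lay above the highest extract rat; control rat 4, at 7.94, was the exception. The means were 8.20 ± 0.17 and 7.86 ± 0.12 (SD, n = 7 each). The log2 fold was -0.35 ± 0.08 (SE; adjusted p = 0.022; exact two-sided permutation p = 0.00233). The call was lost without extract rat 2 (log2 fold -0.32, adjusted p = 0.0558). It was also lost without both control rat 1 and extract rat 4 (-0.28, adjusted p = 0.0546), the 2 arrays of lowest limma weight, a setting chosen after the data had been seen. In RefSeq's gene order of GRCr8, Igfbp3 is the direct neighbour of Igfbp1, with 0 genes between them, and the 2 had log2 folds of opposite sign.

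Markers of 3 other liver cell types, listed with earlier results of these data known, were read beside Igfbp3. All 10 Kupffer cell markers had a negative log2 fold (median -0.28), as did 7291 of all 14506 genes, and 9 of the 10 had an unadjusted p under 0.05, against 14.8% of all genes. After adjustment 2 of them fell, against 1.15% of all genes: Marco, a scavenger receptor (-0.73, adjusted p = 0.00586), and Vsig4, a complement receptor (-0.51, adjusted p = 0.0243; 0.0542 without extract rat 1 and 0.0617 without extract rat 2). The mean log2 value over the 10 markers ran from 8.86 to 9.08 in control and from 8.47 to 8.81 in extract rats. All 7 measured sinusoidal endothelial markers had a negative log2 fold (median -0.16) and 0 passed limma's test, with 2 at an unadjusted p under 0.05. Their mean level ran from 8.94 to 9.11 in control and from 8.55 to 9.17 in extract rats. Of 10 stellate cell markers 7 had a negative log2 fold and 1 fell, the growth factor receptor Pdgfrb (-0.37, adjusted p = 0.0415; lost under 14 of 24 other settings). Their mean level ran from 7.08 to 7.30 in control and from 6.80 to 7.15 in extract rats. None of the markers of Kupffer or endothelial cells had both group means below 5.10; among stellate cell markers only Ngfr did. In whole liver, fewer cells of a type and less RNA per cell cannot be told apart, and the part of these cells in the fall of Igfbp3 was not tested.

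**Figure D2:**
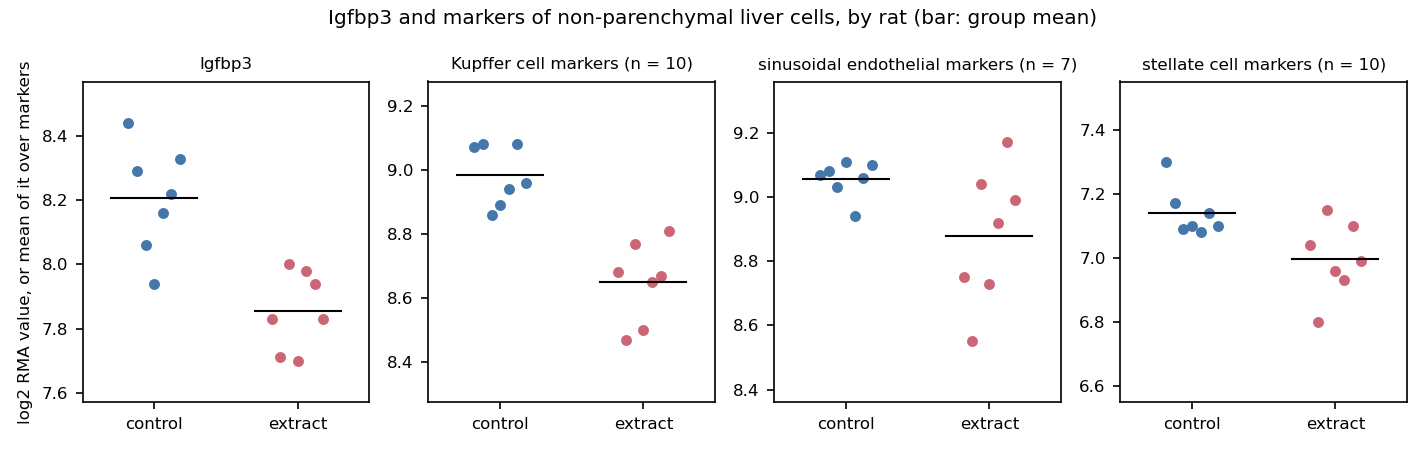
Log2 RMA value of Igfbp3 and the mean log2 value over the measured markers of 3 non-parenchymal cell types, by rat, on vertical axes of equal span; bars are group means of 7 rats. The Kupffer cell mean of every extract rat (8.47 to 8.81) lies below that of every control (8.86 to 9.08), whereas the endothelial and stellate means overlap between the groups.

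Igfals, the hepatocyte gene of the acid-labile subunit and a direct STAT5 target, was lower in most extract rats but did not pass. Control values ran from 9.76 through 10.25 to 10.50 and extract values from 9.65 through 9.97 to 10.23. All 7 extract rats lay below the control median and 4 controls lay above every extract rat, but control rat 1, at 9.76, stood low among the controls. The log2 fold was -0.31 ± 0.11 (SE; adjusted p = 0.178; exact two-sided permutation p = 0.0332). Without control rat 1 it was -0.38 (adjusted p = 0.0333), and without both arrays of lowest weight -0.34 (adjusted p = 0.0597). Igf1 itself, the main hormone product of the axis, varied little: 12.61 through 12.67 to 12.81 in control and 12.42 through 12.65 to 12.74 in extract rats. Its log2 fold was -0.06 with a 95% interval of -0.20 to 0.07 (adjusted p = 0.715). A value this high lies near the top of the array's scale, which reached 14.01, and saturation there was not tested.

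Neither receptor passed the test, and their groups overlapped. Ghr ran from 12.01 through 12.23 to 12.31 in control and from 12.15 through 12.21 to 12.31 in extract rats, with a log2 fold of 0.00 (95% interval -0.12 to 0.13, adjusted p = 0.993). Prlr, the prolactin receptor, which is abundant in female rat liver and shares the JAK2 and STAT5 route, ran from 10.61 to 11.14 in control and from 10.64 to 11.40 in extract rats. Its log2 fold was 0.11 (95% interval -0.10 to 0.32, adjusted p = 0.697). Stat5b ran from 8.75 to 9.54 and from 8.83 to 9.56, with a log2 fold of -0.01 (95% interval -0.26 to 0.25, adjusted p = 0.988).

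The 2 feedback genes differed widely between rats of the same diet. Cish ran from 7.12 through 8.04 to 9.22 in control and from 6.99 through 8.06 to 8.79 in extract rats, and the groups overlapped almost fully. Its SD within groups was 0.66, at percentile 99.8 of all genes, whose median SD was 0.16. Socs2 ran from 8.94 through 9.94 to 10.21 in control and from 8.79 through 9.26 to 10.11 in extract rats, with an SD of 0.46. Only 1 extract rat, rat 6 at 10.11, lay above the control median, while 6 lay below it. The log2 folds were -0.09 for Cish (95% interval -0.71 to 0.53, adjusted p = 0.933) and -0.32 for Socs2 (95% interval -0.76 to 0.11, adjusted p = 0.519). Both intervals include differences of either sign. Igf1 and Ghr, by contrast, had within-group SDs of 0.09 and 0.08. Values of both genes lay near the top of the array's scale, which reached 14.01, and saturation there was not tested.

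**Figure D3:**
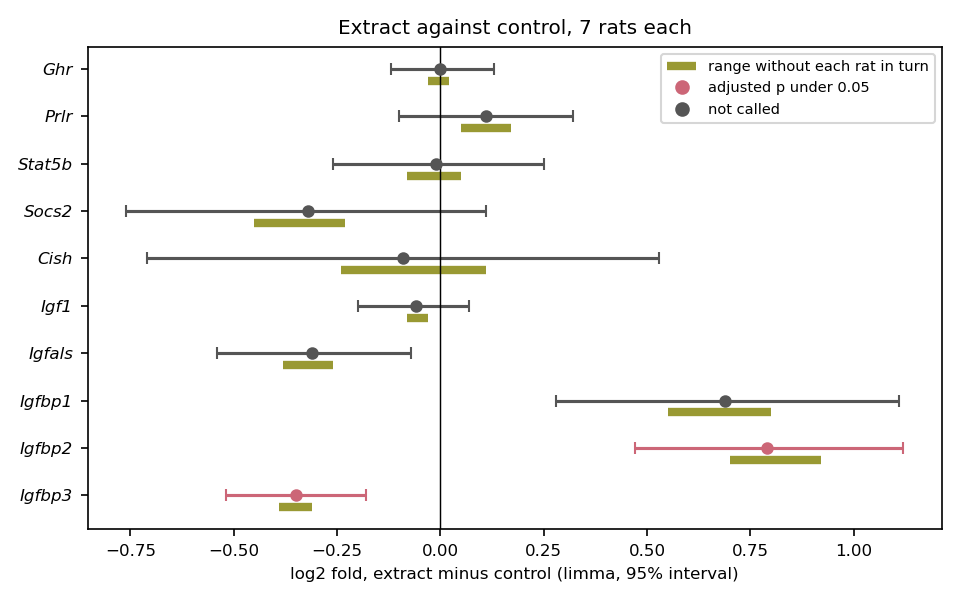
Log2 fold (extract minus control, horizontal axis) of the 10 genes with limma's 95% interval; red points passed an adjusted p of 0.05, grey points did not, and the olive bar gives the range of the log2 fold when each of the 14 rats is left out in turn. Igfbp2 (0.70 to 0.92) and Igfbp3 (-0.39 to -0.31) keep their sign in every such fit, while the bars of Ghr, Stat5b and Cish cross 0.

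The genes were also compared with each other across rats, after each value was centred on its group mean so that the diet difference played no part. Of 45 pairs, 0 passed Benjamini-Hochberg adjustment by Pearson's r and 1 by Spearman's rho; 10 had an unadjusted permutation p under 0.05 for r. The pair that passed was Igf1 and Igfbp2, in which rats with more Igf1 had less Igfbp2 (r = -0.73, permutation p = 0.00238, adjusted 0.0573; rho = -0.84, permutation p = 0.00031, adjusted 0.0139; 14 rats). Within the groups r was -0.69 in control and -0.82 in extract rats, and it was -0.59 without the 2 rats farthest from the Igf1 median and -0.65 without the 2 farthest from the Igfbp2 median. Igfals was inversely related to Igfbp2 (r = -0.77, permutation p = 0.00263, adjusted 0.0573; rho = -0.72, permutation p = 0.00689, adjusted 0.0775) and positively to Stat5b (r = 0.74, permutation p = 0.00463, adjusted 0.0573; rho = 0.74, permutation p = 0.00521, adjusted 0.0775). Without the 2 rats farthest from the Igfals median those values were -0.67 and 0.60; without the 2 farthest from the median of the partner gene they were -0.51 and 0.80. Socs2 and Cish, both feedback genes of STAT5, had an r of 0.17 (permutation p = 0.58). Igfbp3 had no r beyond 0.30 in size with any of the other 9 genes.

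**Figure D4:**
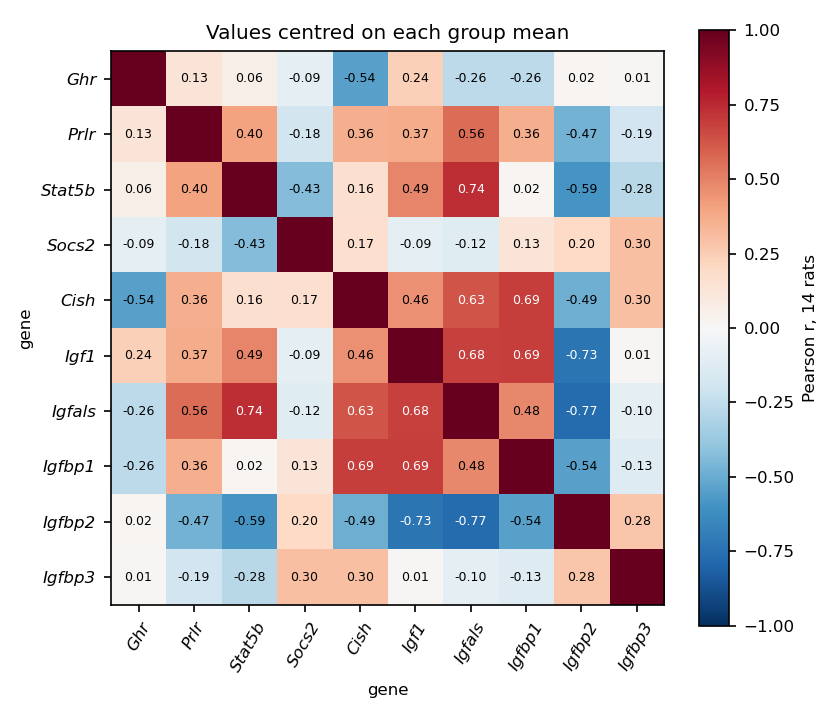
Pearson r between each pair of the 10 genes over 14 rats, from log2 values centred on the mean of the rat's own group; red is positive, blue is negative. Igf1, Igfals, Igfbp1 and Cish form a block of positive values (0.46 to 0.69), each inverse to Igfbp2 (-0.49 to -0.77), while the row of Igfbp3 stays between -0.28 and 0.30. Of these pairs only Igf1 and Igfbp2 passed adjustment, by rho alone. In control rats r was -0.07 for Cish and Igf1 and 0.21 for Igf1 and Igfbp1, against 0.91 and 0.86 in extract rats. Without the 2 rats farthest from the Igfbp2 median, r with Igfbp2 was -0.65 for Igf1, -0.51 for Igfals, -0.27 for Igfbp1 and 0.08 for Cish.

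Part of this pattern ran along a component shared by many other genes. The leading component of the centred values of 7373 genes outside the axis (mean of at least 6) held 39.7% of their variance, with scores from -0.40 in extract rat 7 to 0.37 in extract rat 4 and 0.64 in control rat 1. Igfals followed it most closely (r = -0.96, permutation p = 1e-05, the smallest the permutations can give, adjusted 0.0001 over 10 genes; rho = -0.93, permutation p = 1e-05; r = -0.93 without control rat 1 and extract rat 4, the 2 rats farthest from the median score). Stat5b (r = -0.80, permutation p = 0.00159, adjusted 0.00795; rho = -0.80, permutation p = 0.00164) and Igfbp2 (r = 0.79, permutation p = 0.00451, adjusted 0.015; rho = 0.57, permutation p = 0.0418, adjusted 0.0748) came next. For Stat5b r was -0.66 without those 2 rats, and for Igfbp2 it was 0.37, so the relation of Igfbp2 rested on them. Igf1 also passed by r (r = -0.65, permutation p = 0.0127, adjusted 0.0318) but not by rho (rho = -0.62, permutation p = 0.0245, adjusted 0.0748). Its r was -0.51 without those 2 rats, which gave the 2 arrays of lowest limma weight. Both genes of the Igf1 and Igfbp2 pair thus passed with the component by r but not by rho. The part of the component in their correlation was not tested. Igfbp3 had an r of 0.21 with the component and Ghr of 0.27.

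The genes most like each member were taken from 7382 genes by Pearson's r of centred values over 14 rats, as a description. Igfbp1 was nearest to Sik1, a salt-inducible kinase (r = 0.90), Slc25a25, a mitochondrial carrier (0.89), Rtp3 and Nr4a2, an orphan nuclear receptor (0.87 each); 0 of these 4 passed the diet comparison (adjusted p from 0.572 to 0.927). For Sik1 r was 0.59 in control and 0.99 in extract rats. Igf1 was nearest to Errfi1, a feedback inhibitor of EGF receptors (0.93), and Nr1h4, the bile acid receptor FXR (0.91), then Slc38a2 and Tmem184b (0.90 each). Igfals was nearest to Man2b1 and Arid1a (0.98 each), Ncoa2 and the insulin receptor gene Insr (0.97 each). Because Igfals had an r of -0.96 with the shared component, values this high need not be particular to these genes. Igfbp2 was nearest to Ak6 and Vcf1 (0.91 each), Higd2a and Wdr45b (0.90 each). Igfbp3 had looser neighbours, Tinagl1 (0.82), Cyp26a1, a retinoic acid hydroxylase (0.81), Ifitm2 (0.80) and Timp1, a protease inhibitor (0.79).

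The rest of the pathway was read from lists, here and below, which were also chosen with earlier results of these data known. Of 15 measured genes of growth hormone and prolactin signal transduction, 0 passed limma's test and 1 had an unadjusted p under 0.05 (14.8% of all genes did). That was Jak2, the receptors' kinase, at 7.51 ± 0.15 in control and 7.33 ± 0.11 in extract rats (SD, n = 7 each), with a log2 fold of -0.18 ± 0.08 (SE; limma's adjusted p = 0.282). The median of the list was -0.07. Of 13 other genes of the IGF system, 0 passed and 1 had an unadjusted p under 0.05, Igfbp7, an IGF-binding-related protein of vessels (log2 fold -0.17 ± 0.08 SE, limma's adjusted p = 0.317). The other binding proteins gave log2 folds of -0.01 for Igfbp4, -0.03 for Igfbp5 and 0.16 for Igfbp6, and the receptor Igf1r had -0.18 (adjusted p = 0.348). For 5 of the 13, Igfbp5 among them, both group means lay below 5.10.

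Genes whose level in rat liver follows the sex pattern of growth hormone gave mixed values. Cyp2c12, the classic female-pattern P450, stood at 13.09 ± 0.10 in control and 13.14 ± 0.07 in extract rats, and Cyp2c11, its male counterpart, at 3.66 ± 0.09 and 3.67 ± 0.09 (SD, n = 7 each), below 5.10 in both groups. Of 5 measured female-pattern genes 1 rose, against 2.00% of all genes called higher. That was Cyp3a9, a steroid-metabolising P450, which is also known to respond to foreign compounds. Its control values ran from 9.88 to 10.89 and its extract values from 10.58 to 11.43, a log2 fold of 0.73 ± 0.17 (SE, adjusted p = 0.0235). That call was lost without control rat 7 or extract rats 2, 3 or 5 in turn (adjusted p from 0.0512 to 0.0593). Of 7 male-pattern genes 0 passed limma's test and 5 had an unadjusted p under 0.05, against 14.8% of all genes. Of those 5, 2 had a positive and 3 a negative log2 fold. For 4 of the 7 both group means lay below 5.10: Cyp2c11, Cyp2c13, Cyp3a2 and Hsd3b5. All of these but Cyp2c11 were among the 5. The smallest p was that of Cyp3a2 (log2 fold 0.74, adjusted p = 0.068), with both means below 5.10. Its call was gained without extract rat 4 (limma's adjusted p = 0.0217), with array weights (0.0264) and without the 2 arrays of lowest weight (0.0188). It was also gained at an adjusted p of 0.1.

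Of 13 measured genes that respond to insulin, fasting or amino acid supply, the signals known to act on Igfbp1, 2 rose and 0 fell (median log2 fold 0.13), against 2.00% of all genes called higher. At an unadjusted p under 0.05 there were 5 of the 13, each with a positive log2 fold, against 14.8% of all genes. Ppargc1a, a coactivator of gluconeogenic genes, went from 6.19 ± 0.31 to 6.94 ± 0.10 (SD, n = 7 each), a difference of 0.75 ± 0.11 (SE; limma's adjusted p = 0.000624). Trib3, a pseudokinase induced by ATF4, went from 5.15 ± 0.28 to 5.84 ± 0.27 (SD, n = 7 each), a difference of 0.69 ± 0.13 (SE, limma's adjusted p = 0.00595). Its control mean lay close to the control median of 5.10 over all probes, and the filter at a mean of at least 6 left it out. Pck1, the gluconeogenic enzyme most closely tied to fasting, had a log2 fold of 0.05 (adjusted p = 0.929), Foxo1 of -0.03 and the fasting hormone gene Fgf21 of -0.31 (adjusted p = 0.478). G6pc1, glucose-6-phosphatase, had 0.35 (adjusted p = 0.132) and Asns, an ATF4 target, 0.63 (adjusted p = 0.119). Ddit3, of the same list, had -0.21 (adjusted p = 0.515). Of the 13 log2 folds, 9 were positive and 4 negative. Pck1, Foxo1, Fgf21, G6pc1, Asns and Ddit3, none of which passed, were named after their values had been seen. So were Igfbp4, Igfbp5, Igfbp6, Igf1r, Cyp2c12 and Cyp2c11.

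**Figure D5:**
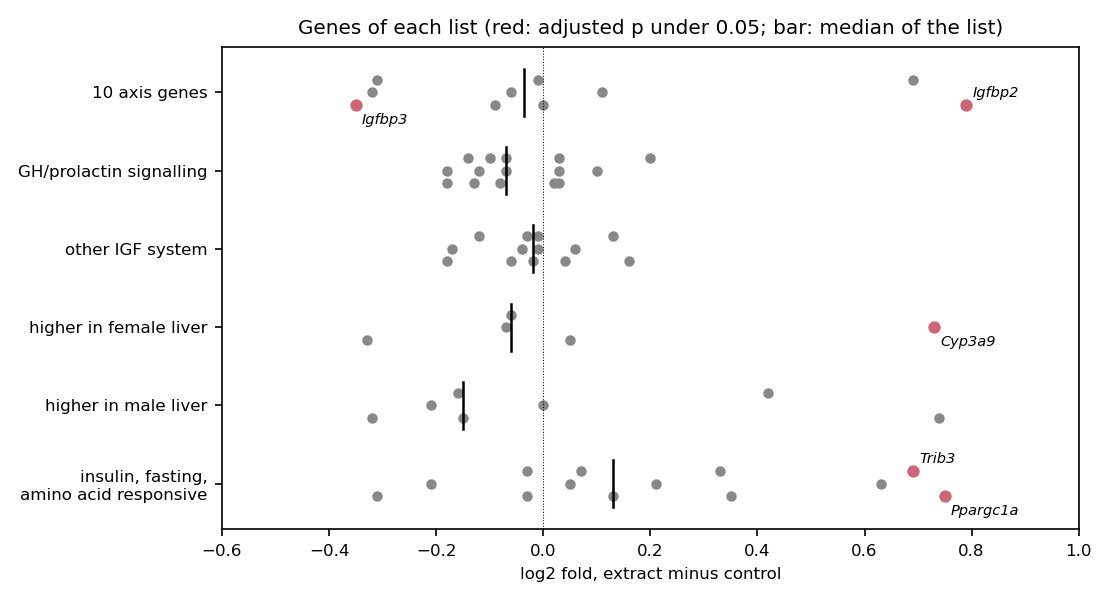
Log2 fold (extract minus control, horizontal axis) of every measured gene of the axis and of 5 related lists; each point is a gene, red points passed an adjusted p of 0.05 and the bar is the list's median. The signalling and other IGF system genes lie between -0.18 and 0.20, and the red points are Igfbp2, Igfbp3, Cyp3a9, Trib3 and Ppargc1a.

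The tissue label was checked with 10 hepatocyte markers, whose mean log2 value ran from 12.92 to 13.10 in control and from 12.93 to 12.99 in extract rats, with 0 passing limma's test (1 at an unadjusted p under 0.05, median log2 fold -0.04). Markers of bile duct (6 measured), lymphocytes (7), pancreas (5) and adipocytes (4) gave 0 calls, with 1 unadjusted p under 0.05 in each list and medians of 0.17, -0.06, 0.11 and -0.10. Over all genes 14.8% had an unadjusted p under 0.05. Any 2 arrays had an r across genes of 0.984 to 0.997. Precision is limited by the number of arrays, and the median SE of a log2 fold over all genes was 0.087.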

How the data were processed

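The deposited values are log2 expression values from whole-transcript Affymetrix arrays, 1 per rat; RMA and Affymetrix Expression Console 1.1.2 are named per the submitters' processing notes, and their options and a genome build are not given in the sources used here. The log2 scale was read from the range (1.95 to 14.01). GEO's platform annotation gave 15310 of 29215 probes exactly 1 symbol; for genes with several probes the brightest was used, leaving 14506 genes.

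Groups were compared with limma 3.58.1 in R 4.3.3 (two-sided, no covariate, no filter), adjusted over all genes; exact permutation tests used all 3432 assignments, and correlations 100000 permutations within groups. The 10 members and all lists were chosen with earlier results of these data known. Named were all members, up to 4 passing genes of each list (otherwise that with the smallest p), and the 4 genes most like Igf1 and each member with an unadjusted p under 0.05. On simulated data for this comparison (14506 genes, 5 runs), the fit recovered 87.6% of changes of 0.5 and 99.6% of changes of 1, with 4.88% false calls. The simulation drew noise independently for each gene, whereas the real values shared a component. Its recovery is an average over genes picked at random. The within-group SDs of Igfbp1, Igfbp2, Socs2 and Cish lay at percentiles 96.3 to 99.8 of all genes, so that average need not hold for them. Alternatives were other normalizations, filters, probe choices, variance models, weights, a replicate block and leaving out rats.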

Additional observations from a re-analysis of the deposited data

Results flagged for a closer look

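Each of the 10 genes was examined for a rat far from the others in each group, 20 sets of 7 rats in all, of which chance alone would flag about 1 in 20. Control rat 1 stood above the other controls for Igfbp2, at 6.59, with a gap of 0.64 to the next rat in a range of 1.04. Control rat 7 stood below the other controls for Ghr, at 12.01.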

How the results depend on the processing

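Igfbp2 kept its call in all 24 alternatives (adjusted p from 0.000103 to 0.0229), though not all of them could have lost it. Igf1, Prlr and Socs2 kept their sign with no call. Members called higher, 1 in the reported fit, numbered 2 (with Igfbp1) at an adjusted p of 0.1, when genes with a mean below 6 were dropped, with array weights and without the 2 arrays of lowest weight, and 1 to 2 when each rat was left out. Members called lower, 1 in the reported fit, numbered 0 to 2 when each rat was left out (Igfals joined without control rat 1) and 0 without the 2 arrays of lowest weight. Rat numbers are shared between the diets, but no label says that they pair animals, and deviations of same-numbered rats correlated between -0.58 and 0.36, with 2 of 7 control rats closest to their own number. With the rat number as a replicate block 235 genes were higher and 129 lower, against 290 and 167, and members called lower numbered 0 (Igfbp3 at adjusted p = 0.0515).

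Over all genes, lower calls numbered 291 at an adjusted p of 0.1 and 262 with array weights; leaving out each rat gave 209 to 329 higher and 116 to 292 lower genes (292 without control rat 1). After median centring 251 were higher and 116 lower. Signs of genes near 0 turned: Ghr (-0.01 with array weights, -0.03 to 0.02 leaving out rats), Stat5b (0.00 after median centring, -0.08 to 0.05) and Cish (0.02 with array weights, -0.24 to 0.11). The causes were not tested. With 7 rats a group, dim genes and those that vary as Cish does limit what can be detected.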
